A study of Mus musculus with 18 samples.

Results

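Collagen chain genes were described across 6 mouse cell populations sequenced in a study of Col2.3GFP osteoblasts. They were taken as every row of the deposited count tables whose symbol consists of Col, a number, the letter a and a number. This rule found 44 genes in each of the 3 tables, and the same 44 in all of them, out of 17173 rows for bone, 16966 for bone chips and 19781 for ESC (20202 different symbols in all). In Col2.3GFP mice a fragment of the *Col1a1* promoter drives green fluorescent protein (GFP) in cells of the osteoblast lineage. GFP+ (hi) cells, which the labels call osteoblasts, and a GFP- population labelled heterogeneous were sorted from fresh long bone, and the same pair was sorted from bone chip cultures under osteogenic differentiation. The remaining pair was ESC and the GFP+ (hi) cells differentiated from them, which the titles name ESC-OB (ESC-OB GFP+). A treatment label names osteogenic differentiation for ESC as well, but the titles call them ESC and they are treated here as undifferentiated. Each population has 3 libraries. The labels give neither strain, age, sex nor days in culture, and they do not say that replicates came from separate animals or cultures, so that p-values measure the spread between these libraries, which may be technical. Because the gate reads a *Col1a1* promoter fragment, a high level of *Col1a1* in GFP+ cells is a check of the sort. The reference of ESC-OB is a different cell state (ESC), not GFP- cells of the same culture.

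Collagens are extracellular proteins in which several chains wind around each other in a long helix, and the helix needs a glycine at the start of each triplet of amino acids. Fibrillar chains (types I, II, III, V, XI, XXIV and XXVII) assemble into the fibrils of bone, cartilage and loose connective tissue. FACIT chains (fibril-associated collagens with interrupted helices) decorate these fibrils, type IV forms the sheet of basement membranes, type VI forms beaded filaments around cells, and types VIII and X form networks of short chains. Type I, with its chains *Col1a1* and *Col1a2*, is the main protein of bone matrix, and types II, IX, X and XI are known from cartilage.

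Values below are CPM, counts divided by the scaled library size, with edgeR's TMM factors within each source. TMM sets the bulk of genes equal, so that CPM can exceed a gene's share of the counts. Total counts were 5482065 to 6468750 in bone GFP-, 21425212 to 43874837 in bone GFP+ (hi), 9829832 to 17553194 in bone chip GFP-, 13228266 to 15221973 in bone chip GFP+ (hi), 4920977 to 21215099 over ESC libraries and 20680956 to 26601417 over those of ESC-OB GFP+ cells. ESC replicates 2 and 3 differed by a chi-square per degree of freedom of 1.68, against 13.5 and 17.1 for the other ESC pairs, and were kept as separate libraries with the result for their sum given where a call changed. Transcripts of 4 Y-linked genes (*Ddx3y*, *Eif2s3y*, *Kdm5d* and *Uty*) summed to 96.6 to 213 CPM in the bone GFP- libraries and to 0.137, 42.6 and 0.298 CPM in bone GFP+ (hi) replicates 1, 2 and 3, so that sex and GFP cannot be fully told apart in bone. In the bone chip libraries these transcripts summed to at most 0.0708 CPM, so that sex also differs between the sources. Markers of osteoblasts and osteocytes (8 genes) summed to 1716 to 2052 CPM in bone GFP- and 94003 to 127639 CPM in bone GFP+ (hi) cells. They summed to 7718 to 9902 and 73421 to 84005 CPM in the bone chip populations. In ESC their sum was 1060.2 to 1180.0 CPM, within the range of 348 to 2414 CPM over the ESC-OB GFP+ libraries. *Bglap* and *Ibsp* of this list were at 0 in ESC, and no gene of it was at 0 in ESC-OB GFP+ cells.

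The coding sequences of the 44 chains show how the classes differ. In the GENCODE vM1 models on mm9, 305 of 649 coding exons of the 11 fibrillar chains were exactly 54 bases long, which is 47.0%, against 25.3% in the 9 FACIT chains, 4.04% in the 6 type IV chains and none of the 6 coding exons of the 3 short-chain network genes. A 54-base exon holds 6 codon triplets, and 302 of the 305 fibrillar ones had a glycine codon at the start of all 6. One such exon is shown for each of 10 chains because the results turn on these chains, and because the shared unit and its differences can be read from them. Capitals mark the glycine codon that opens each triplet.
*Col1a1*, coding exon 8, chr11:94801218-94801271, plus strand: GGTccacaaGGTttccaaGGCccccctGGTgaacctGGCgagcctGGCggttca
*Col1a2*, coding exon 8, chr6:4465481-4465534, plus strand: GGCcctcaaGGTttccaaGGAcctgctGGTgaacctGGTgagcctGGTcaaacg
*Col5a1*, coding exon 15, chr2:27820771-27820824, plus strand: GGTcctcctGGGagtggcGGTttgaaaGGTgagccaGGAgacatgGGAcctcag
*Col5a2*, coding exon 6, chr1:45491737-45491790, minus strand: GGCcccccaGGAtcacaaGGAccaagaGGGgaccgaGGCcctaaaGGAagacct
*Col24a1*, coding exon 4, chr3:144983625-144983678, plus strand: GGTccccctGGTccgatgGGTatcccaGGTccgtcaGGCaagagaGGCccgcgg
*Col22a1*, coding exon 12, chr15:71782953-71783006, minus strand: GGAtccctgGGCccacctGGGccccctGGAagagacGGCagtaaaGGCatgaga
*Col13a1*, coding exon 24, chr10:61332272-61332325, minus strand: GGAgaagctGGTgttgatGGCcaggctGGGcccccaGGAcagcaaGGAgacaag
*Col2a1*, coding exon 6, chr15:97828976-97829029, minus strand: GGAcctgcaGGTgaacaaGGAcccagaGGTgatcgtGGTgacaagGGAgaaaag
*Col3a1*, coding exon 6, chr1:45382205-45382258, plus strand: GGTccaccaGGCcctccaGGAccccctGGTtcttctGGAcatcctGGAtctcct
*Col4a1*, coding exon 7, chr8:11245211-11245264, minus strand: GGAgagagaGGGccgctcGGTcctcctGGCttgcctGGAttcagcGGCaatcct

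The chains differ in how long this pattern runs on. Counting consecutive triplets that open with a glycine codon, the longest unbroken run was 337 to 344 triplets in 9 of the 11 fibrillar chains (338 in *Col1a1* and 344 in *Col3a1*). It was 216 in *Col24a1* and 217 in *Col27a1*, which have 33 exons of 54 bases each. Type IV chains also spend most of their codons on such triplets (74.8 to 78.7%), but their longest runs were 39 to 66 triplets, so the pattern is often broken. *Col22a1*, a FACIT, had 28 exons of 54 bases, as many as fibrillar chains have, with a longest run of 113. *Col13a1*, a transmembrane chain, had 3 such exons and a longest run of 44.

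**Figure D1:**
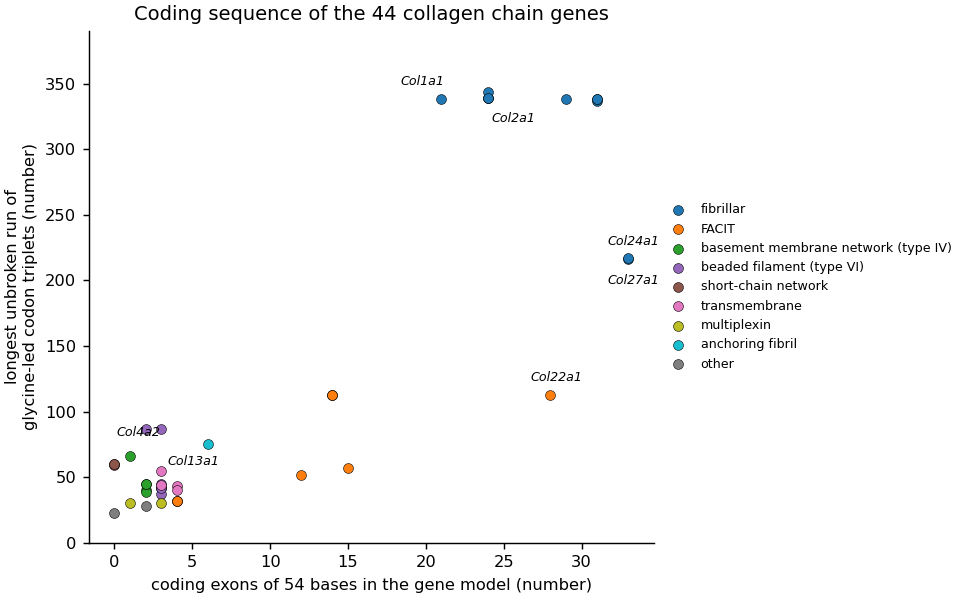
Each point is 1 of the 44 chains, with the number of coding exons of 54 bases on the x axis, the longest unbroken run of glycine-led codon triplets on the y axis, and the collagen class as colour. The fibrillar chains lie at 21 to 33 exons and 216 to 344 triplets, above *Col22a1* at 28 exons and 113 triplets.

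Collagen transcripts took a large part of all counts in the bone populations. The 44 chains held 55.7, 56.8 and 54% of all counts in replicates 1 to 3 of bone GFP+ (hi) cells and 30.2, 18.9 and 33.0% in those of bone GFP- cells. In bone chips the shares were 23.9, 22.5 and 26.6% in GFP+ (hi) and 9.82, 8.59 and 9.39% in GFP- cells. ESC-OB GFP+ libraries held 2.38, 2.92 and 3.08% and ESC libraries 0.0475, 0.0387 and 0.0392%. The GFP+ libraries of each source lay above all of their reference libraries. With 3 against 3 libraries an exact permutation test cannot go below a two-sided p of 0.1, so none is given. *Col1a1* alone made up 36.2 to 37.5% of each bone GFP+ (hi) library. With *Col1a1* left out of chains and total alike it was 29.6% on average, against 26.6% in bone GFP- cells, and the libraries of the groups then overlapped (27.5 to 30.9% against 18.2 to 31.9%). In bone GFP- cells a different chain led, *Col2a1* of cartilage type II collagen, with 13.7 to 24.1% of all counts.

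**Figure D2:**
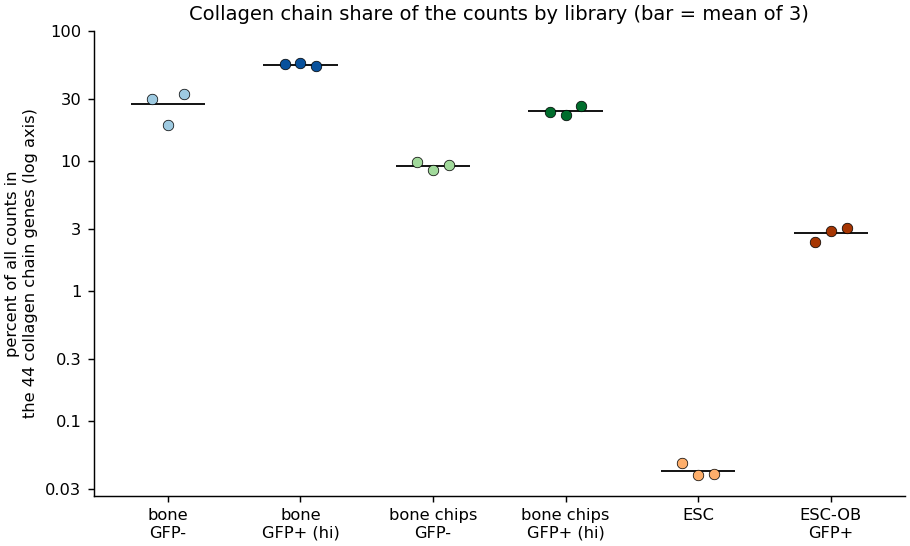
The percentage of all counts that fell in the 44 collagen chain genes is plotted on a log axis for each of the 18 libraries, with a bar at the mean of 3. GFP+ libraries lie above their reference in each source, from 0.0387 to 0.0475% in ESC to 54 to 56.8% in bone GFP+ (hi) cells.

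Within the collagen transcripts, the make-up by class was compared on the scale of counts per base of exons, which allows chains of different length to be added. Fibrillar chains made up 99.7 ± 0.0459% (SD, n = 3) of the summed collagen level in bone GFP+ (hi) cells and 98.3 ± 0.195% in bone chip GFP+ (hi) cells. They made up 85.1 ± 0.772% and 85.3 ± 1.08% in the GFP- cells of these sources. The remainder in GFP- cells differed between sources. In bone it was mostly FACIT, at 12.1 ± 0.602%, and in bone chips mostly type VI, at 10.2 ± 0.735%. In ESC the multiplexins, here almost only *Col18a1* of basement membranes, made up 68.9, 75.8 and 78.7%, of a total that was small. ESC-OB GFP+ libraries were not alike: type IV made up 55.7, 23.2 and 47.7% and fibrillar chains 32.7, 60.0 and 39.2% in replicates 1, 2 and 3. Replicate 2 was low in type IV and high in fibrillar chains. Without *Col1a1* and *Col1a2*, fibrillar chains still made up 91.3 ± 0.699% in bone GFP+ (hi) cells, led by *Col11a2*, *Col11a1* and *Col5a2*, and 18.2 ± 6.62% in ESC-OB GFP+ cells.

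**Figure D3:**
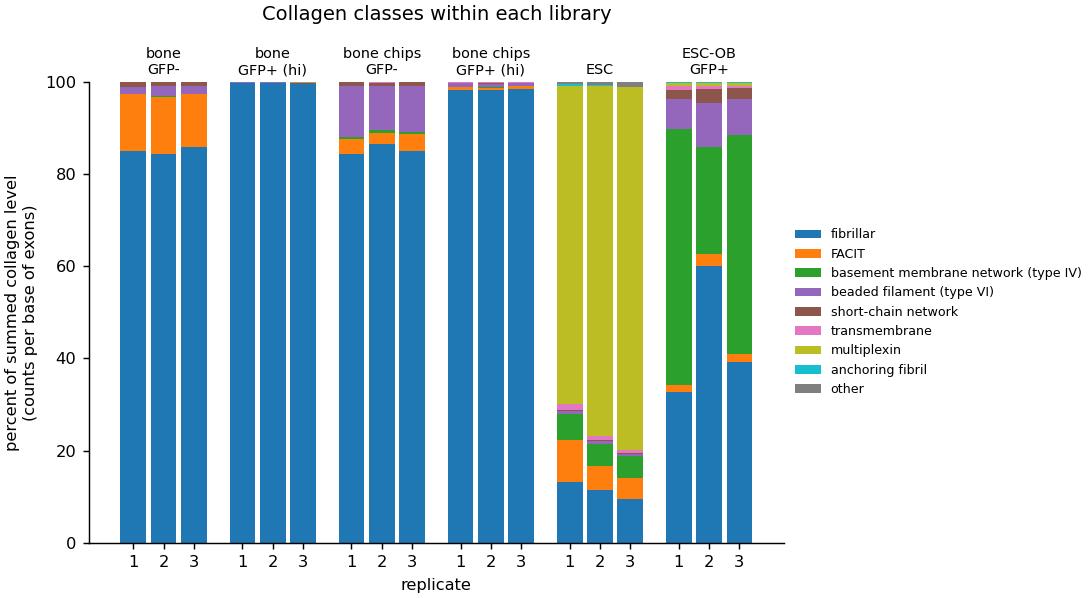
Stacked bars give, for each library, the percentage of the summed collagen level (counts per base of exons, 0 to 100%) in each collagen class, by population and replicate. Fibrillar chains fill nearly the whole bar in GFP+ (hi) cells of bone and bone chips, multiplexins lead in ESC, and type IV and fibrillar chains share the ESC-OB GFP+ bars in unequal parts.

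In bone, most collagen chains were lower in GFP+ (hi) than in GFP- cells. Of the 39 chains that passed the filter on low counts, 9 were higher and 25 lower in GFP+ (hi) cells, and 5 were not called (edgeR's quasi-likelihood test, adjusted p under 0.05). Over all 12559 genes tested, 41.7% were called, 19.5% higher and 22.1% lower. The median log2 fold change of the chains was -2.24, beside -0.0013 for all genes. *Col4a4*, *Col6a4*, *Col6a5*, *Col19a1* and *Col28a1* were under the filter. The libraries of the groups did not overlap for 33 of the 39 chains, against 55.9% of all genes. In bone chips 36 chains were tested, of which 13 were higher, 14 lower and 9 not called, where 43.5% of 12841 genes were called (20.4% higher and 23.1% lower), with a median of -0.04 for the chains and for all genes. There *Col4a3*, *Col4a4*, *Col6a4*, *Col6a6*, *Col17a1*, *Col19a1*, *Col25a1* and *Col28a1* were under the filter, and the libraries lay apart for 27 of 36 chains (56.1% of all genes). Leaving out each library in turn gave 7 to 9 chains higher and 21 to 24 lower in bone, and 13 higher and 13 to 17 lower in bone chips.

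Among the fibrillar chains, 7 of 11 were higher in bone chip GFP+ (hi) cells and 5 of 11 in bone. *Col1a1* had 5688, 5361 and 12036 CPM in bone GFP- cells and 508783, 548101 and 531846 CPM in GFP+ (hi) cells. *Col1a2*, the other chain of type I collagen, had 6166, 4853 and 9420.1 and 243349, 251140 and 226987 CPM. The groups lay far apart for both chains. *Col5a1* and *Col5a2* encode the main chains of type V collagen, which sits inside type I fibrils and limits their width. *Col5a2* had 563, 455 and 765 CPM in bone GFP- and 5247, 5018 and 4653 CPM in bone GFP+ (hi) cells, with 3.06 (SE 0.23, adjusted p = 7.86e-06) as log2 fold change. In bone chips it had 3409, 2532 and 3419 and 6478, 4998 and 5784 CPM (log2 fold change 0.88 (SE 0.17, adjusted p = 0.00597)). All GFP+ (hi) libraries were above all GFP- libraries in both sources, by a wider margin in bone. For *Col5a1* the log2 fold changes were 3.03 (SE 0.40) and 1.45 (SE 0.11). The third type V chain, *Col5a3*, moved the other way in bone, with 27.4, 6.62 and 42.1 CPM in GFP- and 2.72, 4.44 and 0.963 CPM in GFP+ (hi) cells (log2 fold change -3.25 (SE 0.68, adjusted p = 0.00421)). In bone chips its log2 fold change of -1.38 was not called (adjusted p = 0.0607), though it was with the replicate number as a block (adjusted p = 0.0014) and without bone chip GFP+ (hi) replicate 3 (adjusted p = 0.0215) or bone chip GFP- replicate 2 (adjusted p = 0.0202).

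*Col24a1*, a fibrillar chain with a short helix that is known from developing bone, was among the largest rises in both sources. It had 5.49, 4.57 and 11.6 CPM in bone GFP- and 159, 172 and 159 CPM in bone GFP+ (hi) cells, and 13.3, 13.3 and 16.2 and 200.0, 156 and 240.4 CPM in the bone chip populations. The log2 fold changes were 4.50 (SE 0.32, adjusted p = 5.95e-06) and 3.80 (SE 0.19, adjusted p = 3.12e-05). Its closest relative in structure, *Col27a1*, known from cartilage, fell instead. *Col27a1* had 509, 239 and 703 CPM in bone GFP- and 13.8, 12 and 16.7 CPM in bone GFP+ (hi) cells, with log2 fold changes of -5.09 (SE 0.39, adjusted p = 9.58e-06) there and -1.87 (SE 0.17, adjusted p = 2.26e-04) in bone chips. *Col3a1*, the type III chain of soft connective tissue, had 3540.5, 2613 and 5201 CPM in bone GFP- and 1159, 2697 and 926 CPM in bone GFP+ (hi) cells. These groups overlap, since GFP+ (hi) replicate 2 was above GFP- replicate 2. The bone call of *Col3a1* (log2 fold change -1.25 (SE 0.40, adjusted p = 0.0323)) was lost without bone GFP+ (hi) replicate 1 (adjusted p = 0.103), bone GFP+ (hi) replicate 3 (adjusted p = 0.068), bone GFP- replicate 1 (adjusted p = 0.0683) or bone GFP- replicate 3 (adjusted p = 0.123), and with DESeq2 (adjusted p = 0.0718). In bone chips the fall was clear, from 9239.5, 6883 and 10026 to 902, 836 and 969 CPM (log2 fold change -3.27 (SE 0.18, adjusted p = 4.15e-05)).

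The type XI chains *Col11a1* and *Col11a2*, which join type II fibrils in cartilage and type V chains in bone, differed between sources. *Col11a1* had 6528, 4418 and 5563 CPM in bone GFP- and 5483, 5738 and 5747 CPM in bone GFP+ (hi) cells, which overlap. *Col11a2* had 6372, 1619 and 9010.5 and 9099, 9611 and 8958 CPM there, with GFP- replicate 2 well below the other GFP- libraries. Neither was called in bone (log2 fold changes 0.04 and 0.70, adjusted p = 0.895 and 0.271). In bone chips both rose. *Col11a1* had 1175, 993 and 1305 CPM in GFP- and 3275, 3418 and 3955 CPM in GFP+ (hi) cells, and *Col11a2* 237, 223 and 235 and 1935, 1689 and 2159.6 CPM. The log2 fold changes were 1.62 (SE 0.15, adjusted p = 2.26e-04) and 3.06 (SE 0.13, adjusted p = 2.02e-05), and no library of the groups overlapped.

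Outside the fibrillar class, the chains that rose in both sources were *Col13a1* and *Col22a1*. *Col13a1* encodes a transmembrane collagen found at sites of cell adhesion. It had 4.17, 1.94 and 3.39 CPM in bone GFP- and 287, 300.0 and 313 CPM in bone GFP+ (hi) cells, and 4.35, 8.24 and 4.22 and 184, 172 and 252 CPM in bone chips. With log2 fold changes of 6.56 (SE 0.26, adjusted p = 2.39e-07) and 5.17 (SE 0.32, adjusted p = 5.55e-05) it had the largest rise of the chains in both sources. *Col22a1*, a FACIT known from tissue junctions such as that of muscle and tendon, had 34.7, 22.4 and 36.9 CPM in bone GFP- and 999.8, 989 and 1036 CPM in bone GFP+ (hi) cells, and 12, 21.4 and 11.2 and 531, 458 and 567 CPM in bone chips. Its log2 fold changes were 5.01 (SE 0.23) and 5.12 (SE 0.29). None of the other 8 FACIT chains was called higher in either source (*Col19a1* was under the filter). In all, 7 of the 35 chains tested in both sources rose in both, *Col1a1*, *Col1a2*, *Col5a1*, *Col5a2*, *Col13a1*, *Col22a1* and *Col24a1*, where 8.5% of all genes tested in both did. All of these but *Col13a1* have 21 or more exons of 54 bases. The 14 chains lower in both sources (9.3% of all genes) include *Col3a1* with 24 and *Col27a1* with 33 such exons, so both directions hold chains with many such exons.

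**Figure D4:**
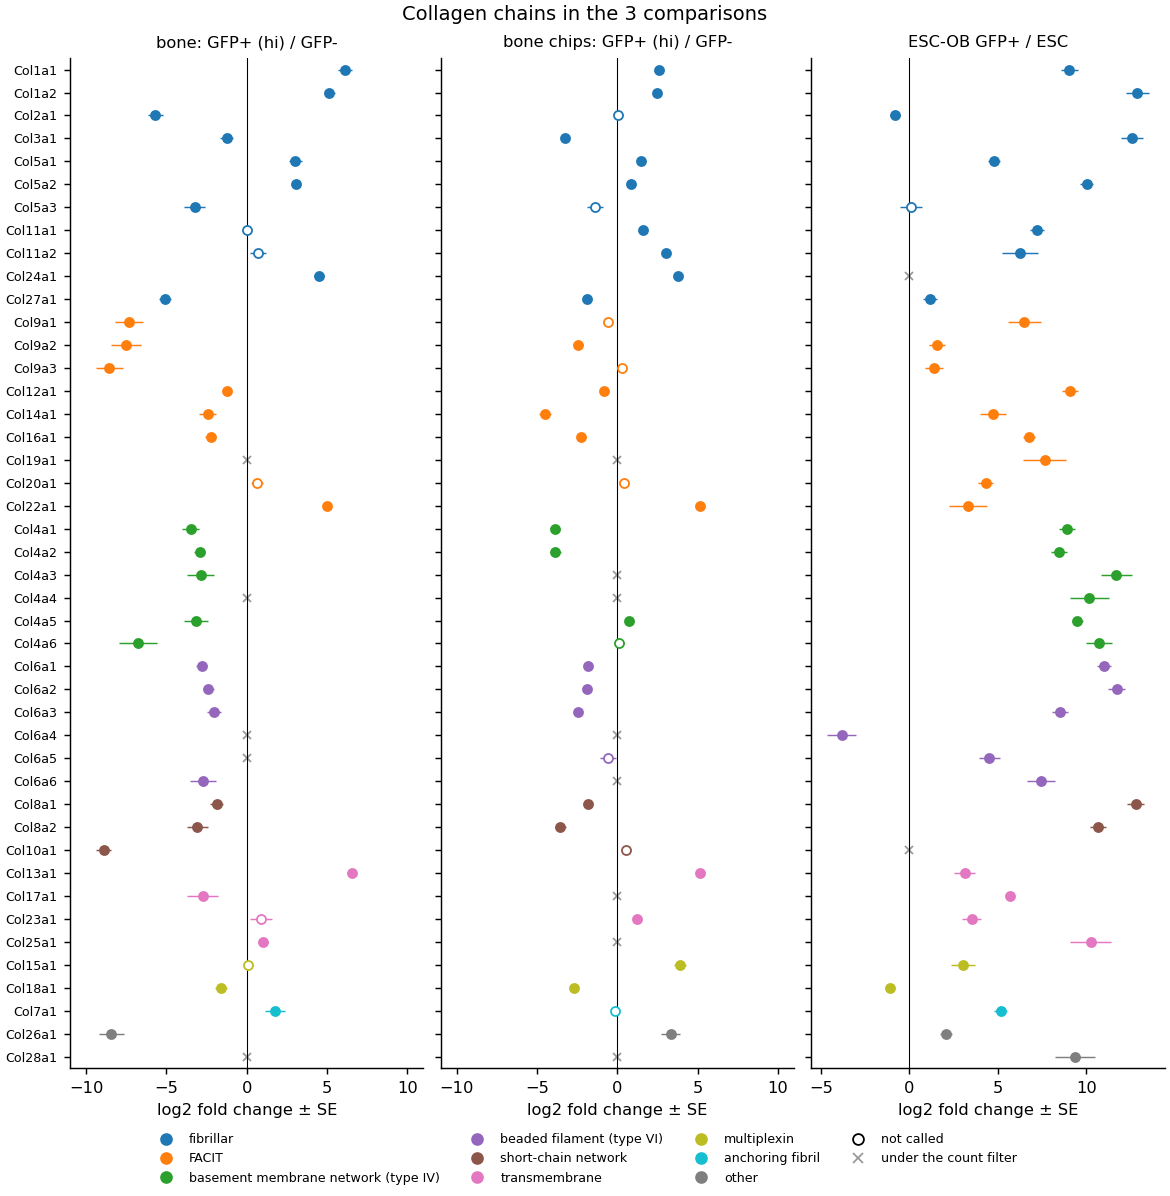
Log2 fold changes with their standard errors are drawn for each chain, 1 row a chain by class, in bone, bone chips and ESC-OB; filled points were called, open points were not, and grey crosses mark chains under the count filter. *Col13a1*, *Col22a1* and *Col24a1* lie far to the right in bone and bone chips, *Col9a1*, *Col9a2*, *Col9a3* and *Col10a1* lie far to the left in bone, and nearly all chains lie to the right in ESC-OB, where *Col4a3*, *Col4a4*, *Col4a6*, *Col19a1*, *Col25a1* and *Col28a1* have a fitted value against 0 counts in ESC (as *Col4a6* does in bone GFP+ (hi) cells).

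RefSeq promoter windows (GRCm38.p6) were matched by symbol for 35 of the 44 chains, and of these 7 genes for *Col1a2*, *Col5a1*, *Col13a1* and *Col24a1*. The 250 bases before each start are shown because these chains rose together in both sources. Capitals mark matches, on either strand, to TGTGGT, a core of Runx sites, to the CCAAT box, to the GC box GGGCGG and to the TATA box searched as TATAAA.
*Col1a2*, chr6:4505368-4505617, plus strand: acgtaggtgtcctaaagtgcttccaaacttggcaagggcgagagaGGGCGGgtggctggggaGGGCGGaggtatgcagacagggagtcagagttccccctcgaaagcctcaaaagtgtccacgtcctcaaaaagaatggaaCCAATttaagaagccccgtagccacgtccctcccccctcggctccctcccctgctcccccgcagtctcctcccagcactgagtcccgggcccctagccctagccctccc
*Col5a1*, chr2:27886175-27886424, plus strand: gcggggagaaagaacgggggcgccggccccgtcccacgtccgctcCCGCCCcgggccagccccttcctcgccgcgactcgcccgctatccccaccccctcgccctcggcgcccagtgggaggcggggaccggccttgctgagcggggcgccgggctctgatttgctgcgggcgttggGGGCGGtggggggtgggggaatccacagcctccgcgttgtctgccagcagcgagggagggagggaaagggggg
*Col13a1*, chr10:61979109-61979358, minus strand: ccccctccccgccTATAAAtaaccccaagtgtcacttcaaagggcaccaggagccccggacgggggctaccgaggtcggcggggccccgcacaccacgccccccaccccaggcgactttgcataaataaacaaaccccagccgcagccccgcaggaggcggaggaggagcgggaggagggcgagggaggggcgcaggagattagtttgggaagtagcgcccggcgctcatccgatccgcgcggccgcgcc
*Col24a1*, chr3:145292222-145292471, plus strand: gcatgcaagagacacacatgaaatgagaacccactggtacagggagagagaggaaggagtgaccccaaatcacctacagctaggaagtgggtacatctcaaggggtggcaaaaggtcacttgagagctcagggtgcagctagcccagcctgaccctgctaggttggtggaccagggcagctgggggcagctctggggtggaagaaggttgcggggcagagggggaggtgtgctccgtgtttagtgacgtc

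None of the motifs was in all 4 windows. *Col1a2* has CCAAT 109 bases before the start and GGGCGG 205 and 188 bases before it, *Col5a1* has GGGCGG 205 and 73 bases before the start, *Col13a1* has TATAAA 237 bases before it, and *Col24a1* has none of the 4 motifs. Over the 35 chains, 60.0% of the windows held GGGCGG, against 32.9% of all 27025 windows of this length. CCAAT was in 34.3% of chain windows and 34.5% of all, TATAAA in 14.3% and 13.0%, and TGTGGT in 5.71% and 14.2%. None of the 4 motifs contains another, and a match describes these letters only.

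Of the collagens known from cartilage, the chains of types II, IX and X fell in bone GFP+ (hi) cells, and among these *Col9a2* alone was called in bone chips. The type XI chains differed from them, since *Col11a1* and *Col11a2* were not called in bone (0.04 and 0.70 on the log2 scale). *Col2a1*, the type II chain, had 161290, 85628 and 181799 CPM in bone GFP- and 4070.4, 2606 and 1654 CPM in bone GFP+ (hi) cells. In bone chips it had 5017, 3372 and 6832 and 4603, 5929 and 5169 CPM, which overlap. The log2 fold changes were -5.69 (SE 0.46, adjusted p = 1.35e-05) and 0.04 (SE 0.26, adjusted p = 0.906). *Col9a3*, a chain of type IX collagen, which coats type II fibrils, had 9399.6, 4555 and 9852 CPM in bone GFP- and 44.6, 11.2 and 6.16 CPM in bone GFP+ (hi) cells, against 76.5, 55.6 and 76.7 and 72.9, 113 and 64.6 CPM in bone chips. Its log2 fold changes were -8.57 (SE 0.84) and 0.26 (SE 0.23), the latter not called. *Col9a1* had a log2 fold change of -7.32 in bone, which was called, and of -0.59 in bone chips (adjusted p = 0.0673), which was called with DESeq2 (adjusted p = 0.0399) and without bone chip GFP+ (hi) replicate 2 (adjusted p = 0.0447) or bone chip GFP- replicate 2 (adjusted p = 0.00788). *Col9a2* fell in both, with -7.54 (SE 0.93, adjusted p = 1.92e-04) and -2.42 (SE 0.26, adjusted p = 4.34e-04). *Col10a1*, the type X chain of hypertrophic cartilage, had 1078, 480.0 and 1057 CPM in bone GFP- and 2.66, 1.5 and 1.06 CPM in bone GFP+ (hi) cells, and 149, 129 and 178 and 169.6, 337 and 148 CPM in bone chips. In bone every GFP+ (hi) library was far below every GFP- library, and in bone chips the groups overlapped.

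A list of 8 other chondrocyte markers (*Acan*, *Sox9*, *Comp*, *Matn1*, *Matn3*, *Hapln1*, *Lect1* and *Epyc*) moved with these chains in bone. It summed to 19273, 16482 and 18850.2 CPM in bone GFP- libraries and to 550.0, 439.8 and 159.9 CPM in bone GFP+ (hi) replicates 1, 2 and 3, and all 8 genes fell. In bone chips it summed to 2729, 1868 and 2359 and 2759.6, 3339 and 2337 CPM, with 1 gene higher and 5 lower, and no marker was at 0 in any of these groups. Among the bone GFP+ (hi) libraries, replicate 1 was highest and replicate 3 lowest in this sum and in *Col2a1*, *Col9a1*, *Col9a2*, *Col9a3* and *Col10a1*. The part of chondrocytes in the bone result was not tested. In bulk samples, fewer cells of a type and less RNA per cell cannot be told apart.

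Of the chains of cell-surrounding networks, *Col4a1*, *Col4a2*, *Col6a1*, *Col6a2*, *Col6a3*, *Col8a1* and *Col8a2* were lower in GFP+ (hi) cells of both sources, while the scarcer chains were not called or not tested in bone chips, or rose there. *Col4a1* and *Col4a2*, which together form the common type IV network of basement membranes, lie head to head on chromosome 8 with starts that overlap by 22 bases in the gene models. *Col4a1* had 79.1, 29.1 and 136 CPM in bone GFP- and 3.94, 10.2 and 7.94 CPM in bone GFP+ (hi) cells, and 195, 135 and 112 and 11.3, 12.8 and 6.53 CPM in bone chips. Its log2 fold changes were -3.49 (SE 0.54, adjusted p = 8.14e-04) and -3.85 (SE 0.32, adjusted p = 1.51e-04), and those of *Col4a2* were -2.91 (SE 0.34) and -3.85 (SE 0.36). A list of 9 genes that holds the basement membrane laminins *Lama1*, *Lamb1* and *Lamc1* beside extraembryonic endoderm genes, described with ESC-OB, summed to 136 to 185 CPM in bone GFP- and 68.7 to 89.0 CPM in bone GFP+ (hi) cells, and to 732 to 788 and 222 to 250.3 CPM in bone chips, with *Sox17* at 0, and its part was not tested. The pair *Col4a5* and *Col4a6* on the X chromosome, again head to head, was lower in bone but not in bone chips. The Y-linked counts given above differ between the bone libraries, and between bone GFP- and bone chip libraries. *Col4a5* had 9.23, 6.17 and 18.3 CPM in bone GFP- and 0.320, 2.80 and 0.818 CPM in bone GFP+ (hi) cells (log2 fold change -3.18 (SE 0.73, adjusted p = 0.00704)), but 37.9, 38.0 and 34.1 and 62.0, 58.5 and 59.1 CPM in bone chips, a small rise of 0.71 (SE 0.08, adjusted p = 6.50e-04) that was not called in a joint fit of 18 libraries (adjusted p = 0.196). *Col4a6* had 23 counts in bone GFP- and 0 in bone GFP+ (hi) libraries, which makes it at least 19.3-fold lower against a floor of 3 counts over the group, and was not called in bone chips (0.12). *Col4a3*, of the kidney and lung network, was scarce, with 1.21, 2.4 and 0.584 CPM in bone GFP- and 0.192, 0.341 and 0.0481 CPM in bone GFP+ (hi) cells, and its call (adjusted p = 0.0227) was lost without bone GFP+ (hi) replicate 1 (adjusted p = 0.0695), bone GFP- replicate 1 (adjusted p = 0.073) or bone GFP- replicate 2 (adjusted p = 0.145).

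The 3 main type VI chains, which surround most connective tissue cells, fell together. *Col6a1* had 1579, 1450.2 and 2031 CPM in bone GFP- and 274, 335 and 124 CPM in bone GFP+ (hi) cells, and 3172, 2288 and 2635 and 877, 636 and 756 CPM in bone chips, with no overlap in either source. The log2 fold changes in bone and bone chips were -2.79 (SE 0.34) and -1.83 (SE 0.18) for *Col6a1*, -2.38 (SE 0.33) and -1.89 (SE 0.17) for *Col6a2*, and -2.03 (SE 0.43) and -2.47 (SE 0.21) for *Col6a3*. The alternative type VI chains *Col6a4*, *Col6a5* and *Col6a6*, neighbours on chromosome 9, stayed under 5 CPM in every bone and bone chip library. *Col8a1* and *Col8a2*, the chains of type VIII collagen of vessel walls and the cornea, fell in both sources. On the log2 scale, *Col8a1* was at -1.86 and -1.82 in bone and bone chips, and *Col8a2* at -3.09 and -3.55. Of the FACIT chains that bind type I fibrils, *Col12a1* had 266, 283 and 314 CPM in bone GFP- and 119, 125 and 118 CPM in bone GFP+ (hi) cells (log2 fold change -1.25 (SE 0.14)). In bone chips its value of -0.83 (SE 0.25, adjusted p = 0.0333) lost its call without bone chip GFP+ (hi) replicate 1 (adjusted p = 0.0938), bone chip GFP+ (hi) replicate 2 (adjusted p = 0.104), bone chip GFP+ (hi) replicate 3 (adjusted p = 0.0784), bone chip GFP- replicate 1 (adjusted p = 0.102) or bone chip GFP- replicate 3 (adjusted p = 0.102). *Col14a1* was lower in both sources, at -2.44 in bone and -4.51 in bone chips on the log2 scale, the latter the largest fall of the chains there. *Col16a1*, a FACIT found near microfibrils, was lower at -2.24 in both. A list of 6 fibroblast and progenitor markers summed to 165 to 271 CPM in bone GFP- and 537 to 556 CPM in bone GFP+ (hi) cells, and to 559 to 981 and 343 to 425 CPM in bone chips, so that its sum was lower in GFP+ (hi) cells in bone chips and higher in bone, while 3 of its 5 tested genes were lower in bone and 5 of 6 in bone chips. Its part in the fall of these chains was not tested.

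Other cell type markers were summed in the same libraries, and ranges are given for GFP- and then GFP+ (hi) cells. Smooth and skeletal muscle markers (6 genes) summed to 18.6 to 26.4 and 8.06 to 9.97 CPM in bone, where 3 of 4 tested genes were lower, and to 141 to 265 and 51.8 to 81.1 CPM in bone chips, where 2 of 4 were lower and 1 higher. *Myog* was at 0 in bone GFP+ (hi) cells. Stratified epithelium markers summed to 9.02 to 10.2 and 2.32 to 3.42 CPM in bone and 17.1 to 19.3 and 3.31 to 5.23 CPM in bone chips, with 1 of 3 and 1 of 1 tested genes lower, and *Krt5* and *Krt6a* were at 0 or had no row in all of these groups but bone GFP-. Adipocyte markers summed to 0 to 3.19 and 0 to 0.0683 CPM in bone, where none was tested, and to 4.08 to 7.83 and 0.0797 to 1.08 CPM in bone chips, where both tested genes were lower. Endothelial markers were low throughout, at 2.63 to 3.74 and 0.478 to 0.626 CPM in bone with 1 of 2 tested genes lower and at 0.435 to 3.11 and 0.478 to 1.32 CPM in bone chips with none tested, and *Emcn* was at 0 or had no row. Schwann and neural markers summed to 14.6 to 20.9 and 8.66 to 11.5 CPM in bone, with 2 of 4 tested genes lower, and to 5.10 to 12 and 13.1 to 16.3 CPM in bone chips, with 1 of 3 higher, and *Sox10* was at 0 or had no row in bone GFP+ (hi) and both bone chip groups. Blood markers summed to 3.50 to 56.1 and 1.12 to 6.01 CPM in bone with 1 of 3 tested genes lower, and to 43.1 to 524 and 58.7 to 106 CPM in bone chips, where none of 3 was called and the highest value was that of GFP- replicate 2. The part of these cell types in the fall of the network chains was not tested.

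The multiplexins, which carry an endostatin-like end, parted in bone chips. *Col15a1* had 8.36, 14.1 and 5.70 CPM in GFP- and 163, 157 and 94.0 CPM in GFP+ (hi) cells (log2 fold change 3.89 (SE 0.38, adjusted p = 3.18e-04)). *Col18a1* had 61.6, 61.9 and 42.5 and 10.2, 9.21 and 6.69 CPM (log2 fold change -2.67 (SE 0.21, adjusted p = 1.37e-04)). The libraries of the groups lay apart for both chains, in opposite directions. In bone, *Col15a1* was at 39.8, 48.0 and 71.0 and 45.1, 70.5 and 54.5 CPM and was not called (0.10, adjusted p = 0.785), while *Col18a1* fell (log2 fold change -1.61). *Col26a1*, annotated as *Emid2* and not placed in the other classes, had 212 counts over the bone GFP- libraries and 1 over the bone GFP+ (hi) libraries, a ratio of 535 with a 95% counting interval of 94.9 to 21215. In bone chips it went the other way, from 0, 0.317 and 0.139 to 1.61, 1.33 and 2.15 CPM (log2 fold change 3.32 (SE 0.61, adjusted p = 0.0046)). *Col4a5* and *Col26a1* were the chains called in opposite directions in the 2 sources, 2 of 35, where 4.97% of all genes were.

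Among the scarce chains, *Col25a1*, a transmembrane chain known from neurons, had 6.15, 8.22 and 13.7 CPM in bone GFP- and 21.7, 16.9 and 18.4 CPM in bone GFP+ (hi) cells (log2 fold change 1.03 (SE 0.30, adjusted p = 0.021)) and at most 5 counts over a bone chip group. Its call was lost without bone GFP+ (hi) replicate 1 (adjusted p = 0.0687), bone GFP- replicate 1 (adjusted p = 0.0648) or bone GFP- replicate 2 (adjusted p = 0.0684). *Col7a1*, the chain of anchoring fibrils under epithelia, was at 0.343 to 0.818 CPM in bone GFP- and 1.28 to 2.65 CPM in bone GFP+ (hi) cells, with a call (1.78 (SE 0.61, adjusted p = 0.0414)) that was lost without bone GFP- replicate 1 (adjusted p = 0.11), bone GFP- replicate 2 (adjusted p = 0.144) or bone GFP- replicate 3 (adjusted p = 0.0688). It was also lost with DESeq2 (adjusted p = 0.0546). *Col17a1*, of epithelial hemidesmosomes, and *Col6a6* were lower in bone at under 5 CPM. The call of *Col17a1* (-2.75 (SE 0.97, adjusted p = 0.0457)) was lost without bone GFP+ (hi) replicate 1 (adjusted p = 0.0983), bone GFP- replicate 1 (adjusted p = 0.0926), bone GFP- replicate 2 (adjusted p = 0.0881) or bone GFP- replicate 3 (adjusted p = 0.172). That of *Col6a6* (-2.73 (SE 0.81, adjusted p = 0.0229)) was lost without bone GFP- replicate 1 (adjusted p = 0.0674), bone GFP- replicate 2 (adjusted p = 0.0537) or bone GFP- replicate 3 (adjusted p = 0.0761). *Col23a1* rose in bone chips (1.25 (SE 0.25, adjusted p = 0.0064)), at 4.15 to 7.57 CPM in GFP+ (hi) cells, with an adjusted p of 0.0523 in a joint fit of 18 libraries. *Col20a1* was called in neither source, though in bone it was without bone GFP+ (hi) replicate 3 (adjusted p = 0.0392). *Col19a1* and *Col28a1* had at most 1.48 CPM in any bone or bone chip library.

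Whether the effect of the gate differed between bone and bone chips was tested as an interaction in a fit of their 12 libraries. Of 41 chains tested, 7 had a higher change in bone, 12 a lower change and 22 were not called, where 30.3% of 13574 genes were called (14.7% higher and 15.6% lower). *Col4a4*, *Col6a4* and *Col19a1* were under the filter. The chains with a higher change in bone were mostly fibrillar: *Col1a1* (3.50), *Col1a2* (2.68), *Col5a2* (2.18), *Col3a1* (2.03) and *Col5a1* (1.58) on the log2 scale, with *Col13a1* and *Col7a1*. For *Col3a1* this difference came with a fall in both sources, less steep in bone. Those with a lower change included types II, IX and X, with *Col2a1* at -5.72 (SE 0.57, adjusted p = 1.25e-05) and *Col10a1* at -9.43 (SE 0.63, adjusted p = 5.96e-07), as well as *Col11a1*, *Col11a2*, *Col15a1*, *Col26a1*, *Col27a1*, *Col4a5* and *Col4a6*. *Col22a1* and *Col24a1* were not called, with differences of -0.12 (SE 0.32) and 0.71 (SE 0.37). None of the 5 type VI chains tested was called. The call of *Col7a1* (adjusted p = 0.0248) was lost without bone chip GFP+ (hi) replicate 1 (adjusted p = 0.0633), bone chip GFP+ (hi) replicate 2 (adjusted p = 0.0643) or bone chip GFP- replicate 3 (adjusted p = 0.0502). That of *Col11a2* had an adjusted p of 0.0621 in a joint fit of 18 libraries. Without bone GFP- replicate 3, 11 chains had a higher change in bone, with *Col14a1*, *Col18a1*, *Col24a1* and *Col25a1* added. *Col14a1* was also called without bone GFP+ (hi) replicate 1 and bone chip GFP- replicate 2, *Col18a1* without bone GFP+ (hi) replicate 1 and bone chip GFP- replicate 3, and *Col6a1* without bone GFP+ (hi) replicate 2 (adjusted p of 0.0211, 0.0462, 0.0237, 0.0346 and 0.042). *Col18a1*, not called as reported (adjusted p = 0.0588), was also called with the replicate block (adjusted p = 0.0487), with DESeq2 (adjusted p = 0.048), with collagen rows left out of the scaling (adjusted p = 0.042) and in the joint fit (adjusted p = 0.013), *Col14a1* with DESeq2 (adjusted p = 0.0246) and *Col25a1* with libraries thinned to the smallest total (adjusted p = 0.0489). Source, tissue preparation and culture cannot be told apart in this test. By the Y-linked counts given above, sex cannot be fully told apart from them either.

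In ESC-OB GFP+ cells nearly every collagen chain was above its level in ESC. Of 42 chains tested, 38 were higher, 3 lower and 1 not called, where 77.7% of 15417 genes were called (43% higher and 34.7% lower). The median log2 fold change was 6.98 (6.24 with chains at 0 in ESC set at their bound), beside 0.22 for all genes, and the libraries lay apart for 38 chains (81.6% of all genes). *Col10a1* and *Col24a1* were under the filter. Of the 33 chains tested in all 3 sources, 6 were higher in each, the chains named above for bone and bone chips without *Col24a1*, where 4.82% of all genes were. Leaving out each library in turn gave 35 to 40 chains higher and 2 or 3 lower. The highest mean level per length was that of *Col4a1*, which led in replicates 1 and 3, while *Col1a1* led in replicate 2. *Col4a1* had 14, 15.9 and 13.4 CPM in ESC libraries and 8103, 3731 and 9107 CPM in ESC-OB GFP+ cells, and *Col4a2* 13.6, 5.99 and 5.44 and 3220.1, 1789.5 and 3573 CPM. The log2 fold changes were 8.91 (SE 0.43, adjusted p = 3.14e-08) and 8.46 (SE 0.47, adjusted p = 7.24e-08). The scarcer type IV chains also appeared: *Col4a3*, *Col4a4* and *Col4a6* had 0 counts in all ESC libraries and were at least 218-fold, 75.1-fold and 114-fold higher against a floor of 3 counts over the group, and *Col4a5* had 3 counts in ESC and a ratio of 774 (95% counting interval 265 to 3756).

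Type I and its companions were low in ESC. *Col1a1* had 13.4, 9.60 and 6.91 CPM in ESC libraries and 2973, 7296 and 5559 CPM in ESC-OB GFP+ cells, *Col1a2* 1.29, 0.388 and 0.209 and 2498, 6652 and 3543 CPM, and *Col3a1* 1.66, 0.0555 and 0.209 and 2226, 3002 and 2726 CPM. All ESC-OB GFP+ libraries were far above all ESC libraries. *Col5a1* and *Col5a2* rose by 4.79 and 10.01, *Col11a1* and *Col11a2* by 7.21 and 6.25, *Col12a1* by 9.07 and *Col6a1*, *Col6a2* and *Col6a3* by 11.02, 11.71 and 8.53 on the log2 scale. *Col8a1* had 1 count in ESC and 21990 in ESC-OB GFP+ libraries, a ratio of 8192 (95% counting interval 1470 to 323583). *Col13a1* and *Col22a1*, the strong rises of bone and bone chips, had 4.18, 11.9 and 9.77 CPM and 0.932, 35.1 and 8.80 CPM in ESC-OB GFP+ cells. The call of *Col22a1* (3.31 (SE 1.05, adjusted p = 0.0138)) was lost without ESC replicate 2 (adjusted p = 0.0789) or ESC-OB GFP+ replicate 2 (adjusted p = 0.113), and the libraries of its groups overlapped. *Col24a1* had 0 counts in ESC and 91 in ESC-OB GFP+ libraries, which makes it at least 11.3-fold higher, at 0.311, 2.87 and 0.764 CPM.

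The 3 chains lower in ESC-OB GFP+ cells were *Col18a1*, *Col2a1* and *Col6a4*. *Col18a1*, the most abundant chain of ESC per length, had 350.4, 354 and 326 CPM in ESC libraries and 162, 149.9 and 175 CPM in ESC-OB GFP+ cells (log2 fold change -1.08 (SE 0.15, adjusted p = 7.30e-05)). *Col2a1* had 27.1, 21.5 and 15.5 and 9.42, 11.1 and 16.2 CPM, and its call (-0.81 (SE 0.28, adjusted p = 0.0216)) was lost without ESC replicate 1 (adjusted p = 0.0834), ESC replicate 2 (adjusted p = 0.0645), ESC-OB GFP+ replicate 1 (adjusted p = 0.0931) or ESC-OB GFP+ replicate 2 (adjusted p = 0.0874). *Col6a4* had 2.03, 1.55 and 1.47 and 0, 0.274 and 0.0804 CPM. *Col5a3* was the chain not called, with 0.08 (SE 0.63, adjusted p = 0.91). With ESC replicates 2 and 3 summed to 1 library, *Col27a1* and *Col9a3* were not called (adjusted p = 0.0652 and 0.0821). *Col27a1* also lost its call without ESC replicate 2 (adjusted p = 0.0714) or ESC replicate 3 (adjusted p = 0.0679). *Col9a3* lost it without ESC replicate 2 (adjusted p = 0.114), ESC replicate 3 (adjusted p = 0.0863) or ESC-OB GFP+ replicate 2 (adjusted p = 0.0948), and *Col9a2* without ESC replicate 2 (adjusted p = 0.0586).

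Across the ESC-OB GFP+ libraries some collagens varied with other cell type genes. *Col4a1* was lowest and *Col1a1* highest in replicate 2. A list of 9 extraembryonic endoderm genes (*Lama1*, *Lamb1*, *Lamc1*, *Sox17*, *Sox7*, *Gata4*, *Gata6*, *Dab2* and *Foxa2*), chosen after the counts were seen, summed to 7919.9, 3163 and 8732 CPM in these libraries and 573 to 657 CPM in ESC, and all 9 were higher. The osteoblast and osteocyte list summed to 348, 2414 and 808 CPM, with 3 of 5 tested genes higher and 1 lower. *Col17a1* had 1.84, 2.27 and 1.68 CPM in ESC libraries and 121, 89.6 and 102 CPM in ESC-OB GFP+ cells, and *Col7a1* 2.76, 1.66 and 0.419 and 54.5, 73.7 and 50.7 CPM. Both serve the anchorage of epithelia, and the 6 markers of stratified epithelium summed to 424, 558 and 503 CPM in ESC libraries and 3055, 1596 and 2087 CPM in ESC-OB GFP+ cells, with 5 higher and 1 lower. In ESC-OB GFP+ replicate 2 this sum and *Col17a1* were lowest, while *Col7a1* was highest. The 6 smooth and skeletal muscle markers summed to 13.2 to 16.9 and 517 to 1329 CPM, and the 5 pluripotency markers to 3632 to 4569 and 3.01 to 7.94 CPM. Fibroblast and progenitor markers (6 genes) summed to 5.71 to 10.9 and 834 to 1222 CPM, with 5 higher and 1 lower. Chondrocyte markers (8 genes) summed to 7.12 to 11.4 and 86.1 to 189 CPM, with 5 of 7 tested genes higher and none lower. The part of these cell types in the collagen values was not tested. Pluripotency markers were also detected in bone GFP+ (hi) cells, at 13.8 to 17.2 CPM, against 0.114 to 0.330 CPM in bone GFP- cells.

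Levels across all 6 populations were set on 1 scale, CPM per kilobase of exons with TMM factors over the 18 libraries, as a description, since source and preparation differ with the table. *Col1a1* ranged from 0.911 ± 0.296 (mean ± SD, n = 3) in ESC, through 485 ± 202 in ESC-OB GFP+ cells, to 1709.9 ± 840.0 in bone GFP-, 4440.3 ± 425 in bone chip GFP-, 26853 ± 2862 in bone chip GFP+ (hi) and 128913 ± 3088 CPM per kb in bone GFP+ (hi) cells, and no neighbours in this order overlapped. By its mean it ranked 1st of the 44 chains in bone GFP+ (hi) and both bone chip populations, 3rd in bone GFP-, 2nd in ESC-OB GFP+ cells and 6th in ESC. The leading chain was *Col2a1* in bone GFP- (34607 ± 12472 CPM per kb), *Col4a1* by its mean in ESC-OB GFP+ (616 ± 251) and *Col18a1* in ESC (29.3 ± 1.21). In ESC-OB GFP+ replicates 1, 2 and 3 *Col4a1* had 711, 331 and 807 and *Col1a1* 271, 673 and 511 CPM per kb, so that *Col1a1* was above *Col4a1* in replicate 2. *Col13a1* stood at 104 ± 5.08 in bone GFP+ (hi) and 48.6 ± 10.4 in bone chip GFP+ (hi) cells, and at 1.13 ± 0.529 in ESC-OB GFP+ cells, overlapping the GFP- populations (1.33, 0.606 and 1.07 in bone and 1.05, 1.99 and 1.02 in bone chips). *Col24a1* was at 34.2 ± 0.800 and 28.9 ± 6.16 in the GFP+ (hi) cells of bone and bone chips, which overlap, and at 0.104 ± 0.109 CPM per kb in ESC-OB GFP+ cells.

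**Figure D5:**
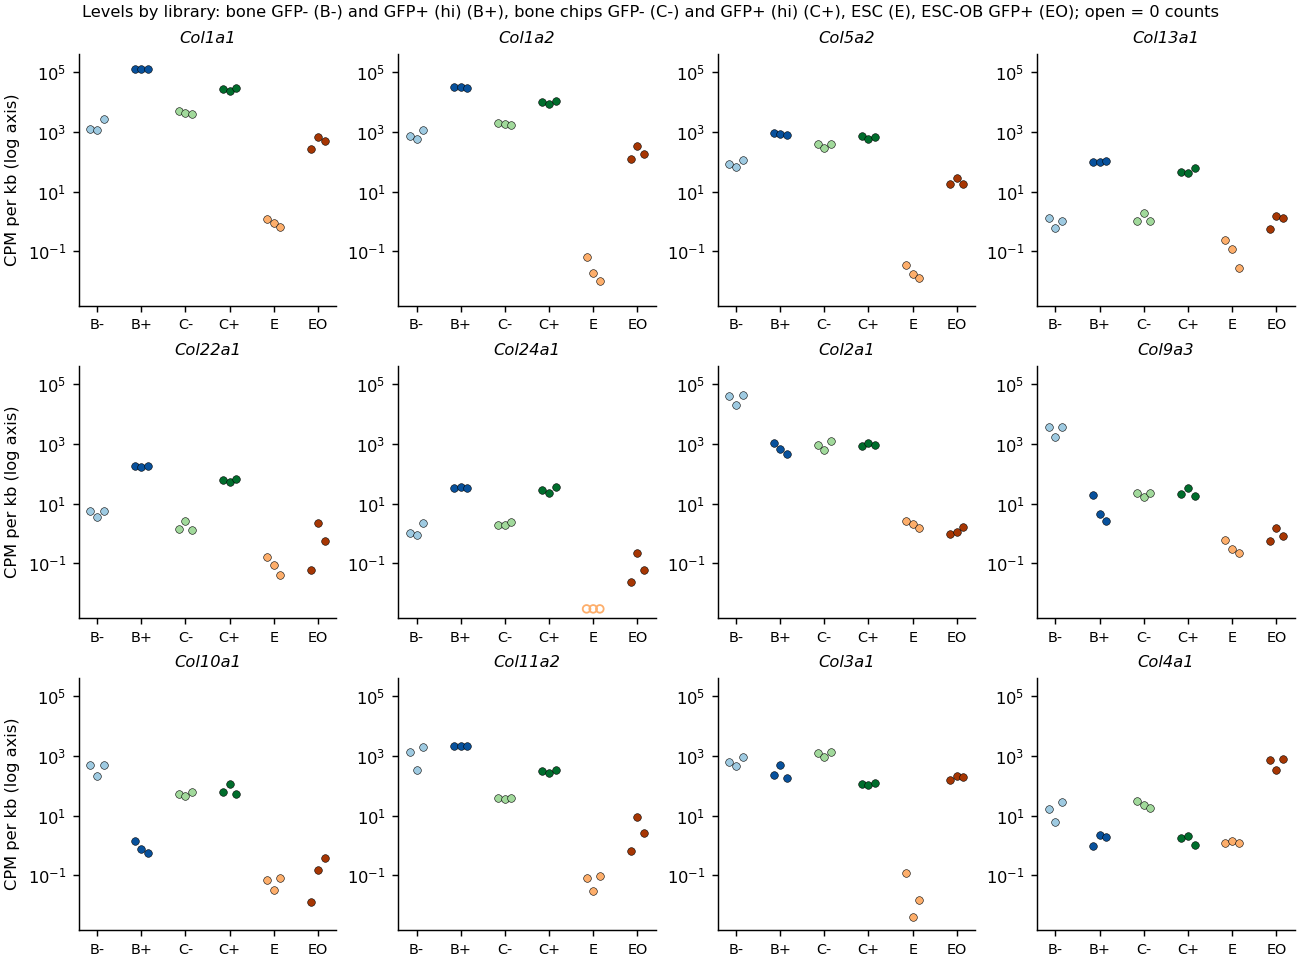
CPM per kilobase of exons (log axis, TMM over 18 libraries) is plotted for 12 chains in each library of the 6 populations, with open points at the bottom for 0 counts. *Col1a1*, *Col1a2*, *Col13a1*, *Col22a1* and *Col24a1* are highest in GFP+ (hi) cells of bone and bone chips, *Col2a1*, *Col9a3* and *Col10a1* in bone GFP- cells, and *Col4a1* in ESC-OB GFP+ cells.

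Partner chains of the same collagen type did not always keep the same balance. Type I collagen is commonly built from *Col1a1* and *Col1a2* in a fixed ratio, and the ratio of their levels per length within a library was 1.71, 2.04 and 2.36 in bone GFP- and 3.87, 4.04 and 4.34 in bone GFP+ (hi) cells. In bone chips it was 2.41, 2.48 and 2.47 and 2.68, 2.72 and 2.69. The mean was 2.00 times as high in GFP+ (hi) as in GFP- cells of bone and 1.10 times in bone chips, with no overlap in either source. These changes do not depend on gene length, but the ratios do: with the longest transcript in place of all exons, which shortens *Col1a2* from 12145 to 5347 bases, they were 0.993 ± 0.160 and 1.99 ± 0.115 in bone and 1.19 ± 0.0165 and 1.31 ± 0.00840 in bone chips. *Col4a1* to *Col4a2* was 1.15 ± 0.286 in bone GFP-, 0.826 ± 0.307 in bone GFP+ (hi), 1.05 ± 0.0151 in bone chip GFP- and 1.08 ± 0.113 in bone chip GFP+ (hi) cells, and 2.31 ± 0.251 in ESC-OB GFP+ cells, above every bone and bone chip library. It was 0.997, 2.58 and 2.39 in ESC libraries, which overlap those of ESC-OB GFP+ cells. *Col6a1* to *Col6a2* was 3.27, 4.77 and 3.11 in bone GFP- and 2.87, 2.75 and 2.11 in bone GFP+ (hi) cells, 0.693 times as high by the mean and with no overlap. In bone chips it was 2.72 ± 0.0466 and 2.82 ± 0.0747, which overlap. *Col5a1* to *Col5a2* was 0.648 ± 0.240 and 0.674 ± 0.0567 in bone, which overlap, and 0.675 ± 0.0989 and 0.995 ± 0.111 in bone chips, which do not. *Col11a1* to *Col11a2* was 0.725, 1.93 and 0.437 in bone GFP- and 0.426, 0.422 and 0.454 in bone GFP+ (hi) cells, which overlap. In bone chips it was 3.51, 3.15 and 3.93 in GFP- and 1.2, 1.43 and 1.30 in GFP+ (hi) cells. *Col9a1* to *Col9a2* was 0.694 ± 0.0931 in bone GFP- and 0.831 ± 0.0967 in bone GFP+ (hi) cells, which overlap. It was 0.850, 0.926 and 0.841 in bone chip GFP- and 3.24, 3.18 and 2.86 in bone chip GFP+ (hi) cells, where *Col9a2* fell. *Col8a1* to *Col8a2* was 2.73 times as high in GFP+ (hi) as in GFP- cells of bone and 3.38 times in bone chips, again with no overlap.

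Genes that fold, trim and bind collagen were counted from 5 lists. Some genes of each list are named for bone and bone chips as examples, not always those with the largest change. Over all genes, 19.5% were called higher and 22.1% lower in bone, 20.4% and 23.1% in bone chips and 43% and 34.7% in ESC-OB. Of 21 genes for folding and modification in the endoplasmic reticulum, bone chips had 14 higher against 1 lower, bone 5 against 8, and ESC-OB 17 against 0, with medians of 0.77, -0.08 and 2.18 on the log2 scale beside -0.04, -0.0013 and 0.22 for all genes. *P4ha3*, a subunit of prolyl 4-hydroxylase, was lower in both sources (-4.51 and -3.15), while *P4ha1* and *P4ha2*, which encode the common subunits, rose by 1.88 and 1.62 in bone chips and were not called in bone (-0.14 and -0.39). *Leprel1*, a prolyl 3-hydroxylase, and *Colgalt2*, which adds galactose to hydroxylysine, were lower in bone (-4.64 and -5.57) and higher in bone chips (2.81 and 1.54). Of 12 genes for propeptide removal and crosslinking, bone had 6 called higher against 5 lower, bone chips 6 against 2 (11 tested), and ESC-OB 10 against 1, with medians of 0.48, 0.94 and 5.17 in that order. *Lox*, the crosslinking lysyl oxidase, rose by 5.55 in bone (adjusted p = 8.99e-08) and had -0.42 in bone chips (adjusted p = 0.151). *Adamts2* and *Bmp1*, proteases that remove the propeptides of fibrillar chains, rose by 4.35 and 3.38 in bone. Other genes of this list were lower there, with *Tll1* at -7.50, *Pcolce2* at -3.26 and *Loxl1* at -2.70. Of 7 collagen receptors, bone had 4 higher against 2 lower, bone chips 4 against 3 and ESC-OB 6 against 0 (medians 0.98, 0.42 and 2.85). *Itga11*, a receptor for fibrillar collagen, was higher in bone (3.00) and lower in bone chips (-1.14). *Itga1* was lower in both sources (-3.94 and -1.13), and *Itga10* was higher in both (2.31 and 2.17). Of 7 collagenases and uptake genes, bone had 5 higher against 0 lower, bone chips 1 against 2 (6 tested) and ESC-OB 6 against 0 (6 tested), where the medians were 1.13, 0.11 and 8.08. *Mmp13*, a collagenase of bone and cartilage, rose by 1.54 in bone chips, where *Mmp9* and *Mmp14* were lower (-2.08 and -0.80). In bone *Mmp13* was not called (1.13, adjusted p = 0.131), and the genes higher there were *Ctsk*, *Mmp2*, *Mmp8*, *Mmp14* and *Mrc2*. Of 5 fibril-associated proteoglycans, bone had 2 higher against 2 lower, bone chips 0 against 4 and ESC-OB 5 against 0, with medians of 0.14, -1.67 and 10.93. *Dcn*, which encodes decorin, was higher in bone (2.49) and lower in bone chips (-0.86), and *Aspn*, which encodes asporin, was lower in both (-2.82 and -3.67).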

How the data were processed

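RNA was sequenced from 18 libraries in 6 groups of 3, given by 3 tables with 1 for each source (bone, bone chips, ESC). The deposited values are raw counts per gene made by the authors. Per the labels, the submitters' processing notes name STAR 2.4.2a, the mm9 genome, DESeq2 and R 3.2.2. The counting tool and strand setting are not given in the sources used here, so overlapping genes such as *Col4a1* and *Col4a2* could share reads. Groups were taken from the sample titles and characteristics.

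Genes were filtered with filterByExpr (minimum count 10), scaled by TMM and tested with edgeR 4.0.16's quasi-likelihood test (R 4.3.3, limma 3.58.1) within each source, and an interaction was fitted on 12 libraries for the 15968 genes in both tables. P-values were adjusted by Benjamini-Hochberg over all genes tested, and adjusted p under 0.05 was called. SE is the log2 fold change divided by the square root of the F statistic. Lengths and exons were those of GENCODE vM1 on mm9, with the union of a gene's exons as length. Alternatives were DESeq2 1.42.0, RLE factors, scaling without collagen rows, no filter, a threshold of 1, thinning to the smallest total, 1 fit of 18 libraries, a replicate block, leaving out each library, and ESC replicates 2 and 3 as 1 library, the last chosen after seeing the data. The fits were checked on simulated counts with known changes. In bone chips the deviations of same-numbered libraries from their group means correlated at 0.158, 0.329 and 0.397, while in bone and ESC no number reached 0.1. The replicate numbers may thus pair the bone chip samples, which the titles do not say. The reported fits do not use such a pairing.

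Counting intervals are exact at 95% and, like the floor of 3 counts, cover counting error only. The text names 17 chains always, up to 10 called chains in each direction per source with the largest change, libraries apart and a mean of 1 CPM, and other chains to account for every member. Genes named from the pathway lists are examples for bone and bone chips, not always those with the largest change. The members, classes and lists were chosen with earlier results of these data known.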

Additional observations from a re-analysis of the deposited data

Results flagged for a closer look

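The change between GFP- and GFP+ (hi) cells differed between bone and bone chips for 19 chains by the interaction test (adjusted p under 0.05), where 30.3% of all genes tested differed. The values here are the log2 fold change in bone minus that in bone chips. Among types II, IX, X and XI and *Col27a1* the difference was -5.72 for *Col2a1*, -6.72 for *Col9a1*, -5.11 for *Col9a2*, -8.83 for *Col9a3*, -9.43 for *Col10a1*, -1.57 for *Col11a1*, -2.35 for *Col11a2* and -3.22 for *Col27a1*. In bone the chondrocyte marker sum fell with types II, IX and X, while *Col11a1* and *Col11a2* were not called there. In bone chips the sums overlapped, with 5 of 8 markers lower and 1 higher, and the part of chondrocytes was not tested. For *Col26a1*, which was at 0 or 1 count in bone GFP+ (hi) libraries, it was -11.81, and for *Col4a6*, at 0 there, -7.04, both fitted values that depend on the prior count. It was -3.98 for *Col4a5* and -3.80 for *Col15a1*. On the positive side it was 3.50 for *Col1a1*, 2.68 for *Col1a2*, 2.18 for *Col5a2*, 2.03 for *Col3a1*, 1.58 for *Col5a1*, 1.38 for *Col13a1* and 1.90 for *Col7a1*. Groups of 3 libraries were not tested for outlying samples.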

How the results depend on the processing

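No called direction of a named chain was reversed by the alternatives run. Values near 0 that changed sign, such as *Col11a1* and *Col15a1* in bone, *Col2a1* and *Col9a3* in bone chips and *Col6a3* in the interaction, were not called as reported or under any alternative. Of the named chains' values outside the left-out libraries, 1092 kept their side of the threshold, 32 lost their call and 9 gained one. With 1 library left out, 986 kept it, 33 lost it and 13 gained one. Leaving out each library in turn gave 7 to 9 chains higher and 21 to 24 lower in bone, 13 higher and 13 to 17 lower in bone chips, 35 to 40 higher and 2 to 3 lower in ESC-OB, and 6 to 11 with a higher and 12 to 13 with a lower change in bone than in bone chips, where 11 came without bone GFP- replicate 3. It gave collagen shares of 24.5 to 31.6% in bone GFP-, 54.8 to 56.2% in bone GFP+ (hi), 8.99 to 9.60% in bone chip GFP-, 23.2 to 25.2% in bone chip GFP+ (hi), 0.0390 to 0.0434% for ESC, with 2.65 to 3.00% for ESC-OB GFP+. Against a threshold of 1 on the log2 scale, 1 chain was lower in ESC-OB and 3 had a higher change in bone than in bone chips. This threshold also removed the bone calls of *Col3a1*, *Col4a3*, *Col6a6*, *Col7a1*, *Col12a1*, *Col17a1*, *Col18a1* and *Col25a1*. In bone chips it removed those of *Col4a5*, *Col5a2*, *Col12a1* and *Col23a1*, so that *Col5a2* was then called higher in bone but not in bone chips. The median log2 fold change of all genes moved by over 0.1 to -0.11 in bone with DESeq2, in the interaction to 0.11 with collagen rows left out of the scaling and to 0.14 in the joint fit, and in ESC-OB from 0.22 to 0.41 with no filter and to 0.33 without ESC replicate 2.

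With the replicate number as a block, 8 chains were higher and 23 lower in bone, where *Col3a1*, *Col7a1* and *Col17a1* lost their call, and the cause was not tested. The numbers may pair samples only in bone chips, where the block changed the call of *Col5a3* alone. In the interaction it changed only that of *Col18a1*, and in ESC-OB none. Without *Col1a1* and *Col1a2*, fibrillar chains made up 84.2 and 91.3% of the collagen level in bone GFP- and GFP+ (hi), 64.4 and 82.0% in bone chip GFP- and GFP+ (hi), 9.32% for ESC, and 18.2% for ESC-OB GFP+, by construction. With the longest transcript as length they made up 86.8 and 98.5% in bone chip GFP- and GFP+ (hi) cells, and *Col1a1* to *Col1a2* was 0.993 and 1.99 in bone GFP- and GFP+ (hi), 1.19 and 1.31 in bone chip GFP- and GFP+ (hi) and 1.16 in ESC-OB GFP+ cells. Without *Col1a1* the collagen share was 29.6% in bone GFP+ (hi), 6.30 and 12.9% in bone chip GFP- and GFP+ (hi) and 2.24% in ESC-OB GFP+ cells. Without the ribosomal RNA row *Rn45s* it was 10.3 and 27.3% in bone chip GFP- and GFP+ (hi) cells. Chains with few counts, such as *Col4a4*, *Col6a4* and *Col19a1* in bone and bone chips, fell under the filter on counts and were not tested there in the reported fits.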
